A study of Mus musculus with 4 samples.

Results

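The lysosome genes of mouse bone marrow stromal cells (mBMSCs) were examined as a group of 33 named genes out of the 47069 gene identifiers in the deposited table. The members were 16 genes of the vacuolar proton pump (V-ATPase), 9 cathepsins, and 8 genes of the lysosome membrane, its hydrolases and its transcriptional regulators. Their rows were found by symbol, from a list drawn up with earlier results of these data known. The symbol list left out Ctsk, Ctss and Atp6v0d2, which are given here beside the members. The name Atp6v0a3 was read as Tcirg1, the gene of the a3 subunit, and the other 32 were found by symbol. The cells were passage 1 mBMSCs of C57BL/6J mice aged 8 weeks, kept for 3 days with ginkgolic acid (GA, 50 µM, an inhibitor of sumoylation) plus dexamethasone (DEX, 1 µM, a synthetic glucocorticoid), or with the solvent DMSO plus the same dose of DEX. Each group had 2 libraries, and every library received DEX, so the comparison is of GA against its solvent in the presence of DEX. Primary mBMSC cultures are adherent marrow cells rather than a sorted cell type. Because the labels do not tell if replicate libraries are from different cultures or mice, the p-values cover library-to-library spread alone, and that spread may be technical.

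The lysosome is the acidic compartment in which cells break down proteins, lipids and glycans. Its acidity is made by the V-ATPase, a rotary motor whose cytosolic V1 sector hydrolyses ATP and whose membrane V0 sector moves protons. Cathepsins are the proteases that work at this acidity. Transcription factors of the MiT/TFE family (TFEB, TFE3, MITF and TFEC) bind E-box sequences in the promoters of many lysosome genes and are known to raise their expression. In bone marrow, macrophages and osteoclasts are particularly rich in these genes, and osteoclasts place the V-ATPase with the a3 and d2 subunits at the bone surface to acidify it.

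Values are FPKM, the fragment count scaled by gene length and by sequencing depth, so levels can be set beside each other between genes. The reads behind the FPKM values were 31069538 and 25717834 in the DMSO plus DEX libraries and 21559951 and 24611800 in the GA plus DEX libraries. The 10 most abundant genes held 23.7% and 22.4% of the reads in DMSO plus DEX against 12.3% and 13.5% in GA plus DEX. Of the 12174 genes tested (limma on log2(FPKM + 1), mean FPKM of at least 1), the median log2 fold change was 0.19, and 0.03 when FPKM was recomputed without those 10 genes. Moving each library to a common median lowered every log2 fold change by 0.23, and the members' calls are therefore given both as deposited and relative to the common median. All 10 adipocyte markers were higher with GA and all 10 osteoblast markers were lower, under both scalings, and lymphocyte and erythroid markers stayed below 1 FPKM in every library. Macrophage markers were also present, with summed FPKM of 4061 and 3818 in DMSO plus DEX and 5545 and 4783 in GA plus DEX. A single gene, Lyz2, made up 2157 and 1890 of the sums in DMSO plus DEX and 2760 and 2311 of those in GA plus DEX.

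All 33 members passed the minimum level. They spanned a wide range, from a mean of 5.53 FPKM for Mitf to 1538 FPKM for Ctsd in DMSO plus DEX, and 288 to 109611 reads stood behind a member in a library. As deposited, 15 members were higher with GA at an adjusted p under 0.05, 3 were lower and 15 did not pass. Over all genes tested, 46.3% were called higher and 11.9% lower. The members' shares, 45.5% and 9.09%, were close to this background, and their median log2 fold change of 0.17 was close to that of all genes. Relative to the common median, 4 members were higher and 8 lower, where 19.5% and 27.9% of all genes were called. The same call as deposited and under each of the 14 alternatives tried, the common median included, was found for 6 members. These were Ctsc, Atp6v1b2, Atp6v0a1 and Atp6ap2, which rose, and Ctsh and Ctsl, which fell.

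**Figure D1:**
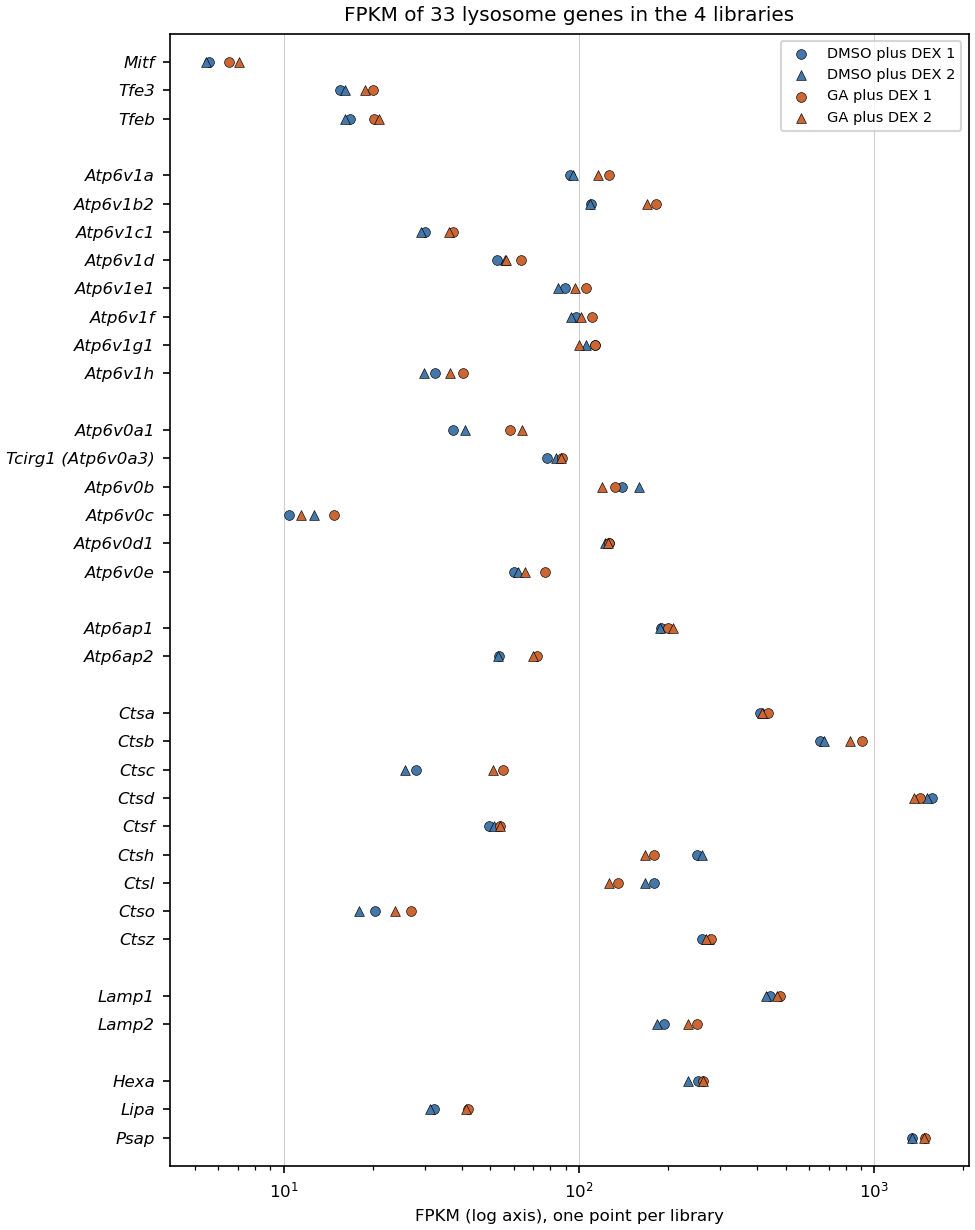
FPKM of the 33 members in each library, on a log axis, grouped by role (blue, DMSO plus DEX; orange, GA plus DEX; circles, replicate 1; triangles, replicate 2). The groups stand clearly apart at Ctsc (28.1 and 25.8 against 55.3 and 51.0 FPKM), Atp6v1b2 and Atp6v0a1, with GA to the right, and at Ctsh and Ctsl with GA to the left.

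**Figure D2:**
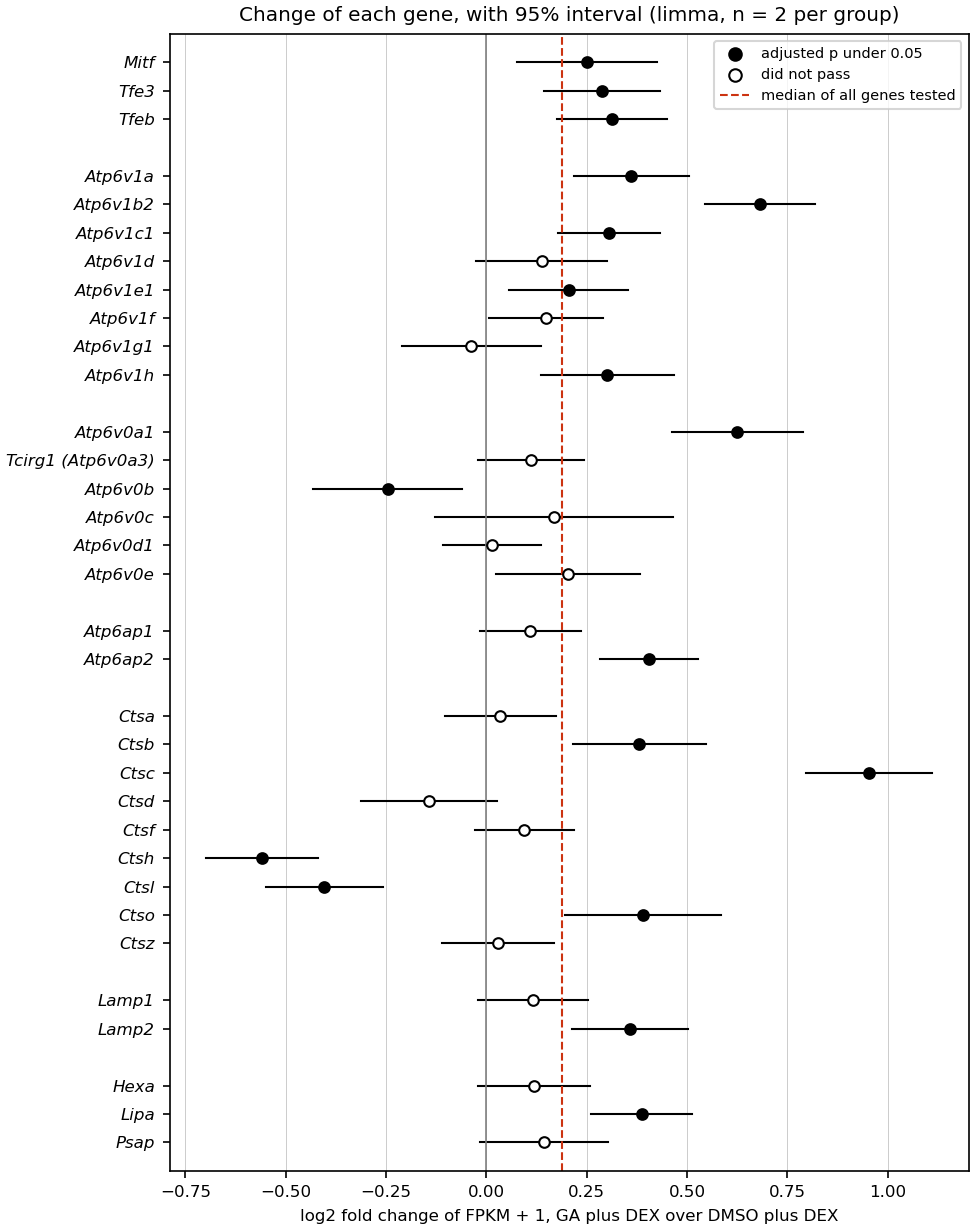
Log2 fold change of FPKM + 1 with its 95% interval for each member, GA plus DEX over DMSO plus DEX, n = 2 per group, as deposited. Filled points passed an adjusted p under 0.05 (limma), and the dashed line is the median of all genes tested at 0.19; relative to the common median every point lies 0.23 further left, which takes 14 of the points above 0 to below it.

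The promoters of several members hold the letters that MiT/TFE factors are known to bind, and these stretches are shown because the same factors are members here. RefSeq promoters (GRCm38.p6, 250 bases before to 50 after a start site) were at hand for 27 of the 33 genes. The E-box CACGTG, which reads the same on both strands, occurred in 9 of these 27 genes (33.3%) against 8.09% of all 27025 genes with a promoter. Its extended form TCACGTGA, which contains it and is also the same on both strands, occurred in 5 members (18.5%) against 1.12% of all genes. In the stretches below, written 5′ to 3′ on the gene's own strand, capitals mark CACGTG with a T before it or an A after it where present, and positions count from the start site, with -1 the base before it.
Ctsa (chr2:164833758-164833787, plus strand, from -15 to 15): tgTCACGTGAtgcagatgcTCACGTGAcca
Ctsd (chr7:142387907-142387934, minus strand, from -107 to -80): cccgcgtcTCACGTGAcccgttgagggc
Atp6v1a (chr16:44139372-44139399, minus strand, from -140 to -113): tttttaaaTCACGTGAtaggcttaacgt
Atp6v0d1 (chr8:105566055-105566078, minus strand, from -14 to 10): cctactgcggTCACGTGAgacgcg
Atp6v0e (chr17:26676388-26676415, plus strand, from -8 to 20): agcgcgccgaTCACGTGAgcctctgttg
Atp6v0b (chr4:117887341-117887370, minus strand, from -41 to -12): ggggTCACGTGgggtcggcgcaTCACGTGc
Lamp1 (chr8:13159091-13159160, plus strand, from -70 to -1): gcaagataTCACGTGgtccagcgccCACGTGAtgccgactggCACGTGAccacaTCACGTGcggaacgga

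Ctsa carried the full 8-base form 2 times within 30 bases, Atp6v0b had 2 E-boxes and Lamp1 had 4. Ctsd also had 2, with CACGTGA at -245 outside the stretch shown. Ctsl and Ctsf, at -236 and -79, held the bare CACGTG. As deposited, 1 of these 9 genes was higher with GA (Atp6v1a), 2 were lower (Atp6v0b and Ctsl) and 6 did not pass, with a median log2 fold change of 0.03. Among the 18 members whose promoters lacked CACGTG, 10 were higher and none was lower, with a median of 0.23. Relative to the common median, the genes with the E-box counted 0 higher and 5 lower and those without it 3 higher and 1 lower. Of all genes tested, 46.3% were higher and 11.9% lower as deposited, and 19.5% and 27.9% relative to the common median. The E-box was uneven across gene classes, in 4 of 7 cathepsins with a promoter, 4 of 12 V-ATPase genes and 1 of 8 other members. A split by E-box is therefore mixed with gene class, and no test was made of it. A match of letters is a description of the promoter and not of a bound factor. Ctsb, Ctsh, Atp6v1b2, Atp6v1c1, Atp6v1g1 and Atp6v1h were not part of this count.

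The 3 MiT/TFE genes among the members were all slightly higher with GA as deposited, by 1.22- to 1.26-fold, and none passed relative to the common median. Over all genes tested, 46.3% were called higher as deposited and 19.5% relative to the common median. Tfeb, the best known regulator of lysosome genes, stood at 16.7 and 16.1 FPKM in DMSO plus DEX and at 20.2 and 21.1 in GA plus DEX. Its log2 fold change was 0.31 ± 0.06 (SE, limma adjusted p = 0.00317), and 0.08 relative to the common median (adjusted p = 0.313). Tfe3, its close relative, stood at 15.5 and 16.1 against 20.1 and 18.9 FPKM, a log2 fold change of 0.29 ± 0.06 (limma adjusted p = 0.00555) that became 0.06 (adjusted p = 0.472). Mitf, which also directs osteoclast and melanocyte genes, was the lowest member, at 5.60 and 5.45 against 6.5 and 7.03 FPKM. Its log2 fold change of 0.25 ± 0.07 passed with all 4 libraries (limma adjusted p = 0.0227), but not without DMSO plus DEX replicate 1 (0.0602), DMSO plus DEX replicate 2 (0.0884) or GA plus DEX replicate 2 (0.107). All 3 genes had higher FPKM in both GA libraries than in either DMSO library, as had 62.5% of all genes tested. The fourth family member, Tfec, which in the mouse is expressed mainly in macrophages and osteoclasts, stood at 4.24 and 4.83 against 8.52 and 7.01 FPKM, a 1.71-fold rise that passed under both scalings (limma adjusted p = 0.00134 as deposited and 0.00993 relative to the common median).

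The V-ATPase genes ran from a clear rise in the B subunit and the a1 isoform to a fall in 1 proteolipid. As deposited, 7 of the 16 genes were higher, 1 was lower and 8 did not pass (43.8% higher and 6.25% lower, against 46.3% and 11.9% of all genes). Relative to the common median 3 were higher and 3 lower (18.8% each, against 19.5% and 27.9% of all genes). Their median log2 fold change of 0.19 matched that of all genes to 2 decimals, and single genes ranged from -0.25 to 0.68. The count of 7 rested in part on 1 library, since without GA plus DEX replicate 2 it became 11.

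In the V1 sector, 5 of 8 genes were higher as deposited and none was lower (62.5% and 0%, against 46.3% and 11.9% of all genes). Relative to the common median 1 was higher and 1 lower (12.5% each, against 19.5% and 27.9%). Atp6v1b2 encodes the B subunit, which forms the ATP-binding ring together with the A subunit. It was listed at 109.8 and 109 FPKM in DMSO plus DEX and at 183 and 169 in GA plus DEX. This was a 1.61-fold rise, with a log2 fold change of 0.68 ± 0.06 (limma adjusted p = 6.55e-05), and it remained at 0.45 relative to the common median (adjusted p = 0.000588). Its kidney-type paralog Atp6v1b1 was listed at 0 in all 4 libraries. Atp6v1a, the catalytic A subunit, rose less, from 93.1 and 95.1 to 127 and 116 FPKM (log2 fold change 0.36 ± 0.06, limma adjusted p = 0.00193), and no longer passed relative to the common median (0.13, adjusted p = 0.114). The ratio of Atp6v1b2 to Atp6v1a, which no scaling of a library can alter, was therefore 1.18 and 1.14 in DMSO plus DEX and 1.44 and 1.46 in GA plus DEX.

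The remaining V1 genes encode the stalks and regulators that hold the ring to the membrane. Atp6v1c1, whose C subunit is released when the pump comes apart, stood at 30.2 and 29.1 against 37.3 and 36.4 FPKM. Atp6v1h, a regulatory subunit, stood at 32.5 and 29.8 against 40.5 and 36.7 FPKM. Both passed as deposited, at log2 fold changes of 0.31 and 0.30 (limma adjusted p = 0.00250 and 0.00861), and neither passed relative to the common median (0.07 each). Atp6v1e1, of the peripheral stalk, was listed at 89.9 and 84.8 against 105 and 96.6 FPKM. Its call as higher (0.20 ± 0.06, limma adjusted p = 0.0265) was lost without DMSO plus DEX replicate 2 (0.158) or GA plus DEX replicate 1 (0.0950), and its sign turned relative to the common median (-0.03).

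The rotor subunits D and F did not pass. Atp6v1d stood at 52.7 and 56.3 against 63.5 and 56.8 FPKM and Atp6v1f at 97.3 and 94.2 against 111 and 102 FPKM, and in neither gene did the groups overlap. Their log2 fold changes of 0.14 and 0.15 turned to -0.09 and -0.08 relative to the common median. Without GA plus DEX replicate 2 both were called higher (limma adjusted p = 0.0279 and 0.0202). Atp6v1g1, the other peripheral stalk subunit, overlapped between the groups, at 113 and 105 against 113 and 99.7 FPKM (-0.04 ± 0.07, limma adjusted p = 0.682), and was lower relative to the common median (-0.27, adjusted p = 0.0224). The ubiquitous isoforms dominated throughout, with Atp6v1g1 at 96.3% to 98.6% of the summed FPKM of the G genes and Atp6v1c1 at 98.0% to 99.8% of that of the C genes.

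In the V0 sector, the a subunit, which lines the proton path and directs the pump to its membrane, changed in isoform makeup. Atp6v0a1 was listed at 37.5 and 41.0 FPKM in DMSO plus DEX and at 58.3 and 64.0 in GA plus DEX. It rose 1.56-fold, with a log2 fold change of 0.63 ± 0.07 (limma adjusted p = 0.000246), and by 0.39 relative to the common median (adjusted p = 0.00201). Atp6v0a2, a Golgi and endosome isoform outside the member list, went the other way, from 47.1 and 50.3 to 41.1 and 42.2 FPKM (-0.22 ± 0.06, limma adjusted p = 0.0131, and -0.45 relative to the common median). Tcirg1, the a3 isoform of lysosomes and of the osteoclast border, was the most abundant a gene in every library. It stood at 78.0 and 83.4 against 87.4 and 86.8 FPKM and did not pass (0.11 ± 0.06, limma adjusted p = 0.130), with a 95% interval from -0.02 to 0.24, and relative to the common median its sign turned (-0.12). As shares of the summed a-subunit FPKM, a1 went from 23.0% and 23.4% to 31.1% and 33.1%, a2 from 28.9% and 28.7% to 21.9% and 21.8%, and a3 from 47.7% and 47.6% to 46.7% and 44.8%. The groups did not overlap in the share of any of these isoforms, and the shares do not depend on library scaling.

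**Figure D3:**
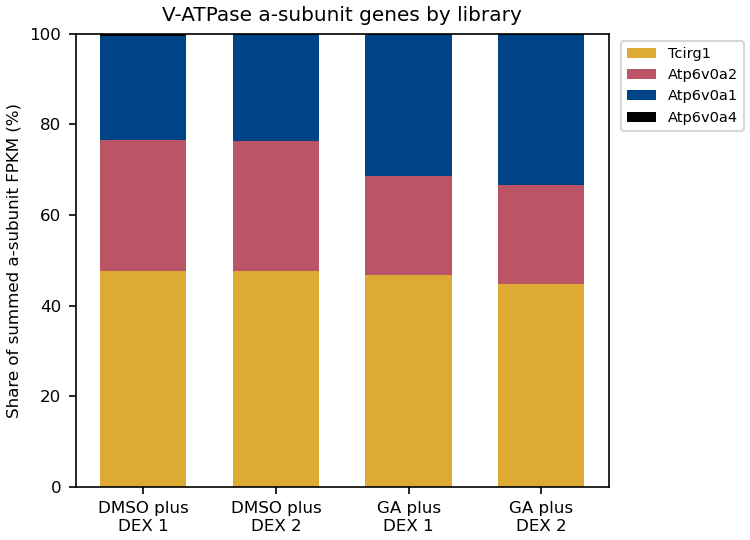
Share of each a-subunit gene in the summed FPKM of the 4 a-subunit genes, per library (stacked bars from 0 to 100%). Atp6v0a1 took 23.0% and 23.4% in DMSO plus DEX and 31.1% and 33.1% in GA plus DEX, Atp6v0a2 moved from 28.9% and 28.7% to 21.9% and 21.8%, and Atp6v0a4 stayed below 1% in every library.

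The d subunit, which joins the rotor to the membrane ring, showed a second isoform difference. Atp6v0d1, the ubiquitous isoform, was nearly level as deposited, at 126 and 123 against 126 and 125 FPKM (0.01 ± 0.05, limma adjusted p = 0.825), and lower relative to the common median (-0.22, adjusted p = 0.0129). Atp6v0d2, the osteoclast isoform outside the member list, rose 3.69-fold, from 3.49 and 3.04 to 13.1 and 11.0 FPKM (limma adjusted p = 1.10e-05), and its share of the summed d-gene FPKM went from 2.69% and 2.42% to 9.36% and 8.11%. The ubiquitous isoform thus made up over 90% of the summed d-gene FPKM in every library.

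Other V0 genes encode the proteolipids and a small membrane subunit. Atp6v0b, one of the proton-carrying proteolipids, was the only V-ATPase member called lower as deposited. It stood at 139.9 and 159.7 FPKM in DMSO plus DEX and at 132 and 120.0 in GA plus DEX, a log2 fold change of -0.25 ± 0.08 (limma adjusted p = 0.0311), and was lower relative to the common median as well (-0.48, adjusted p = 0.00136). That call was lost without DMSO plus DEX replicate 2 (0.207) or GA plus DEX replicate 2 (0.101), so that the count of lower V-ATPase genes was then 0. Atp6v0c, the main ring proteolipid, was listed at only 10.4 and 12.7 against 14.8 and 11.5 FPKM, with overlapping groups (0.17 ± 0.13, limma adjusted p = 0.284). Reads shared with near-identical pseudogenes could be split or discarded in counting, so its level is uncertain, although the pseudogenes named for Atp6v0c were listed at 0.208 FPKM at most. Atp6v0e stood at 60.4 and 62.3 against 76.4 and 65.5 FPKM and just missed the threshold (0.20 ± 0.08, limma adjusted p = 0.0542). Without GA plus DEX replicate 2, Atp6v0c and Atp6v0e were called higher (0.0354 and 0.00385), whereas relative to the common median both signs turned (-0.06 and -0.03).

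Of the accessory subunits, 1 of 2 passed. Atp6ap2, the (pro)renin receptor, which is needed for pump assembly, was tightly grouped at 53.4 and 53.3 FPKM in DMSO plus DEX and at 72.1 and 69.8 in GA plus DEX. It rose 1.33-fold (log2 fold change 0.40 ± 0.05, limma adjusted p = 0.000506), and by 0.17 relative to the common median (adjusted p = 0.0285). Atp6ap1, its partner in the V0 complex, was more abundant, at 189 in both DMSO libraries and at 200 and 208 FPKM with GA. It did not pass (0.11 ± 0.05, limma adjusted p = 0.118) and its sign turned relative to the common median (-0.12). Among factors that assemble or regulate the pump, 7 of the 9 tested were higher as deposited and none was lower (77.8% and 0%, against 46.3% and 11.9% of all genes), and 3 were higher and 1 lower relative to the common median (33.3% and 11.1%, against 19.5% and 27.9%). Rogdi, a partner of the Dmxl proteins in V1 to V0 assembly, went from 6.64 and 7.59 to 11.5 and 12 FPKM (1.65-fold, limma adjusted p = 0.000357). Oxr1, whose TLDc domain binds the pump, went from 9.82 and 10.0 to 16.3 and 14.0 FPKM (1.52-fold, limma adjusted p = 0.000864), and Dmxl1 rose 1.36-fold as deposited only (0.00131, and 0.0590 relative to the common median). Wdr7, another Dmxl partner, was listed at 8.57 and 8.77 against 8.89 and 9.08 FPKM (0.05 ± 0.06, limma adjusted p = 0.555) and was lower relative to the common median (-0.19, adjusted p = 0.0456). Ccdc115, a chaperone of V0 assembly, was listed at 11.9 and 12.4 against 14.1 and 13.3 FPKM and was not called under either scaling.

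The cathepsins were called in both directions. As deposited, 3 of 9 were higher, 2 were lower and 4 did not pass (33.3% higher and 22.2% lower, against 46.3% and 11.9% of all genes). Their median log2 fold change was 0.03, with a range from -0.56 to 0.95. Relative to the common median 1 was higher (Ctsc) and 5 were lower (Ctsh, Ctsl, Ctsd, Ctsz and Ctsa). These were 11.1% and 55.6%, against 19.5% and 27.9% of all genes. The groups stood apart with GA lower in 3 of the 9 genes (33.3%, against 18.3% of all genes tested), and with GA higher in 4 (44.4%, against 62.5%).

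Ctsc, dipeptidyl peptidase I, which activates the serine proteases of immune cells, had the largest change of any member. It was listed at 28.1 and 25.8 FPKM in DMSO plus DEX and at 55.3 and 51.0 in GA plus DEX. The rise was 1.97-fold (log2 fold change 0.95 ± 0.07, limma adjusted p = 2.39e-05), and 0.72 remained relative to the common median (adjusted p = 0.000129). Ctsh, an aminopeptidase, showed the largest fall, from 251 and 261 to 179 and 168 FPKM (-0.56 ± 0.06, limma adjusted p = 0.000192, and -0.79 relative to the common median, adjusted p = 2.75e-05). Its level in DMSO plus DEX was 1.48 times that with GA. The ratio of Ctsc to Ctsh, free of library scaling, accordingly went from 0.112 and 0.0989 to 0.310 and 0.304.

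Ctsl, a broadly expressed endopeptidase, fell as well, from 179 and 167 to 135 and 126 FPKM (-0.40 ± 0.06, limma adjusted p = 0.00126, and -0.64 relative to the common median, adjusted p = 0.000169). Ctsb, an abundant cysteine protease with both endo- and exopeptidase activity, moved the opposite way, from 656 and 677 to 909.8 and 829 FPKM. Its log2 fold change was 0.38 ± 0.07 (limma adjusted p = 0.00301) as deposited and 0.15 relative to the common median, which did not pass (adjusted p = 0.119). The ratio of Ctsb to Ctsl was 3.66 and 4.04 in DMSO plus DEX and 6.73 and 6.57 in GA plus DEX, without overlap between the groups. Ctso, a little studied cysteine cathepsin, stood at 20.4 and 17.9 against 26.9 and 23.9 FPKM, and passed as deposited only (0.39 ± 0.08, limma adjusted p = 0.00546, and 0.16 with adjusted p = 0.175 relative to the common median).

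Ctsd, the main aspartic protease of the lysosome, was the most abundant cathepsin. It was listed at 1572 and 1504 FPKM in DMSO plus DEX and at 1424 and 1361 in GA plus DEX, so that the groups did not overlap. Its log2 fold change of -0.14 ± 0.07 did not pass as deposited (limma adjusted p = 0.124), but did without GA plus DEX replicate 1 (0.0445) and relative to the common median (-0.37, adjusted p = 0.00490). Ctsa, the carboxypeptidase that protects β-galactosidase and neuraminidase, stood at 411 and 420.3 against 436 and 416 FPKM. Ctsz, a carboxypeptidase, stood at 261 and 276 against 279 and 269 FPKM. The groups overlapped in both genes, which were not called as deposited (0.03 each, with 95% intervals from -0.10 to 0.17 and from -0.11 to 0.17) and were lower relative to the common median (-0.20 each, adjusted p = 0.0263 and 0.0206). Ctsf, a cysteine cathepsin, stood at 49.5 and 51.4 against 53.9 and 53.9 FPKM and was not called under either scaling (0.09 ± 0.05, limma adjusted p = 0.160, turning to -0.14). Exons of 10 members overlap another gene of the GENCODE M21 annotation, on the opposite strand in 9 and on the same strand in 2. Among these, Ctsa overlaps Neurl2 and Pltp, Ctsb overlaps Fdft1, Ctsz overlaps Nelfcd, and Ctsl overlaps predicted genes on both strands. Overlapping bases, summed over partners, were 10 of 1441 exon bases in Ctsz, 774 of 6051 in Ctsb and 819 of 4715 in Ctsa. In Ctsl they were 1742 of 6489 on the opposite strand and 395 on the same strand, and in Ctsd 808 of 2351 on the same strand. The strand setting of the counting is not given in the sources used here. Reads that lie in these shared stretches therefore cannot be assigned to one gene or its partner.

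Cathepsins and lysosomal peptidases outside the member list were called in both directions too, with 4 of 9 tested higher and 1 lower as deposited (44.4% and 11.1%, against 46.3% and 11.9% of all genes). Relative to the common median, 1 was higher and 3 were lower (11.1% and 33.3%, against 19.5% and 27.9%). Ctsk, the collagen-degrading cathepsin of osteoclasts, went from 231 and 219 to 338 and 304 FPKM (1.43-fold, limma adjusted p = 0.000680, and 0.28 on the log2 scale relative to the common median, adjusted p = 0.0153). Ctss, typical of antigen-presenting cells, went from 221 and 208 to 279 and 239 FPKM (0.27 ± 0.08, limma adjusted p = 0.0249) and was not called relative to the common median (0.04). Scpep1, a serine carboxypeptidase, fell from 129 and 127 to 113 and 114 FPKM (-0.18 ± 0.05, limma adjusted p = 0.0201, and -0.41 relative to the common median). None of the 3 cathepsin inhibitors tested was called as deposited, and 1 (Serpinb6a) was lower relative to the common median. The cystatin C gene Cst3, an abundant secreted inhibitor, was listed at 2914 and 3058 against 3102 and 2905 FPKM, with overlapping groups (0.01 ± 0.08, limma adjusted p = 0.940).

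Set beside each other, the cathepsins had a lower median change than the V-ATPase genes and a wider spread of changes. This median log2 fold change was 0.19 over the 16 V-ATPase genes and 0.03 over the 9 cathepsins, a difference of 0.15. It ranged from 0.12 to 0.22 when single libraries were left out, the highest without GA plus DEX replicate 2, and was 0.0970 under quantile normalization. Ctsk, Ctss and Atp6v0d2 are outside the 2 lists and do not enter this difference. All 3 were called higher as deposited, at log2 fold changes of 0.51, 0.27 and 1.61. The SD of the log2 fold changes was 0.23 for the V-ATPase genes and 0.45 for the cathepsins. Over all genes tested it was 0.58, so both lists spread less than genes at large. The groups stood apart with GA higher in 12 of 16 V-ATPase genes (75.0%) and in 4 of 9 cathepsins (44.4%), beside 62.5% of all genes tested. Within a library, the mean log2(FPKM + 1) of the V-ATPase genes minus that of the cathepsins was -1.36 and -1.31 in DMSO plus DEX and -1.20 and -1.21 in GA plus DEX. The summed cathepsin FPKM was 2.61 and 2.56 times the summed V-ATPase FPKM in DMSO plus DEX and 2.26 and 2.25 times in GA plus DEX. The groups did not overlap in these measures, and no test was made of them because the genes had been chosen with results of these data known. The summed cathepsin FPKM itself overlapped between the groups, at 3428 and 3401 against 3498 and 3298, whereas the summed V-ATPase FPKM was 1313 and 1327 against 1548 and 1463.

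Of the lysosome membrane and hydrolase members, 2 of 5 were higher as deposited and none was lower (against 46.3% and 11.9% of all genes). None was called in either direction relative to the common median (against 19.5% and 27.9%). Lamp2, a membrane glycoprotein also needed for chaperone-mediated autophagy, went from 194 and 183 to 250.4 and 234 FPKM (0.36 ± 0.06, limma adjusted p = 0.00213, and 0.13 with adjusted p = 0.148 relative to the common median). Lamp1, its more abundant relative, stood at 443 and 430.3 against 479 and 467 FPKM and did not pass (0.12 ± 0.06, limma adjusted p = 0.127). The ratio of Lamp2 to Lamp1 was 0.438 and 0.426 in DMSO plus DEX and 0.522 and 0.501 in GA plus DEX. Lipa, the acid lipase that splits cholesteryl esters and triglycerides, went from 32.4 and 31.2 to 42.1 and 41.5 FPKM (0.39 ± 0.05, limma adjusted p = 0.000752), and narrowly missed relative to the common median (0.15, adjusted p = 0.0547). Hexa, a subunit of β-hexosaminidase, was listed at 252 and 234 against 264 in both GA libraries. Psap, the precursor of the saposins that assist sphingolipid hydrolases, was listed at 1338 and 1340.2 against 1486 and 1472 FPKM. Neither passed (0.12 and 0.14, limma adjusted p = 0.125 and 0.105), and the signs of Hexa, Psap and Lamp1 turned relative to the common median.

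Other lysosomal hydrolases and membrane proteins were also called in both directions. As deposited, 19 of 35 hydrolases were higher and 4 lower (54.3% and 11.4%, against 46.3% and 11.9% of all genes), with a median log2 fold change of 0.19. Relative to the common median 5 were higher and 13 lower (14.3% and 37.1%, against 19.5% and 27.9%). Gm2a, the activator of ganglioside breakdown, rose 1.66-fold, from 15.8 and 16.0 to 27.7 and 25.2 FPKM, and Hyal2, a hyaluronidase, rose 1.60-fold, from 24.0 and 26.7 to 41.1 and 40.1 FPKM. Aga, which cleaves asparagine-linked sugars, fell from 54.0 and 48.9 to 37.0 and 35.1 FPKM. Each of these 3 genes was called in the same direction relative to the common median. Of 22 other membrane proteins, 8 were higher and 2 lower as deposited (36.4% and 9.09%). Relative to the common median, 4 were higher and 9 lower (18.2% and 40.9%). Laptm5, a protein of blood-cell lysosomes, went from 254 and 271 to 409 and 389.8 FPKM (1.52-fold, limma adjusted p = 0.000170), whereas Cd63, an abundant tetraspanin of late endosomes, fell from 1328 and 1365 to 1160.3 and 1116 FPKM (-0.24 ± 0.07, limma adjusted p = 0.0185).

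**Figure D4:**
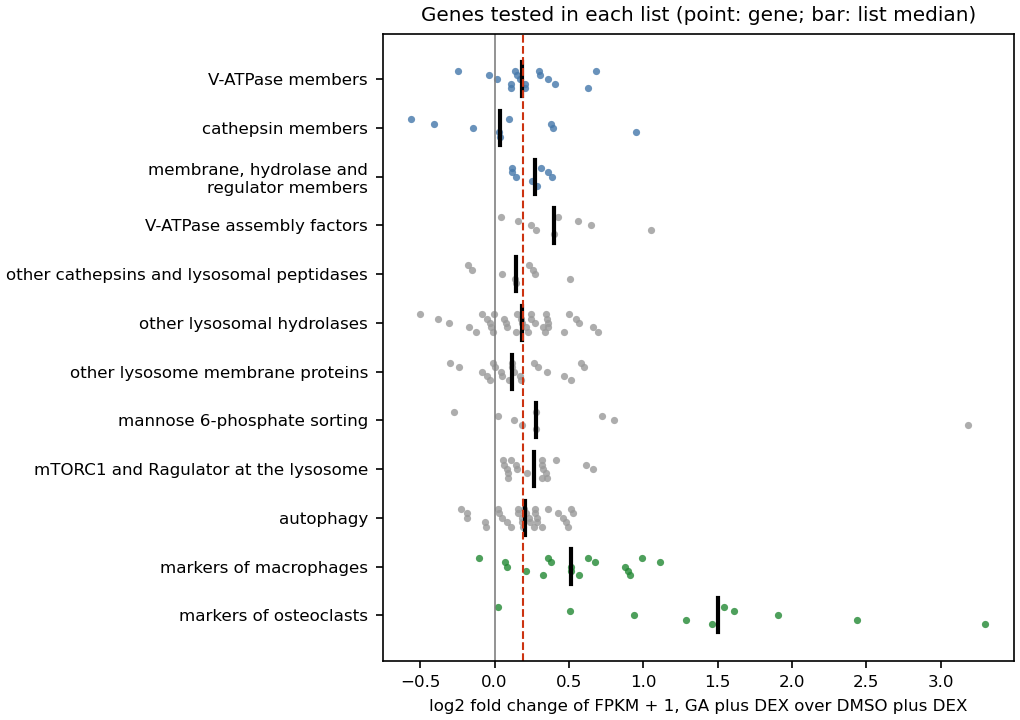
Log2 fold change of FPKM + 1 (GA plus DEX over DMSO plus DEX, as deposited) for each gene tested, by list, with a bar at each list's median; the dashed line is the median of all genes tested (0.19). The medians are 0.19 for V-ATPase members, 0.03 for cathepsin members, 0.52 for macrophage markers and 1.5 for osteoclast markers; relative to the common median all points lie 0.23 further left, so that the V-ATPase and cathepsin medians fall below 0.

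Markers of macrophages and osteoclasts, whose lysosome genes are also abundant, were mostly higher with GA, with larger median changes than the members (0.17). As deposited, 14 of 17 macrophage markers tested were higher with GA and none was lower (82.4% and 0%, against 46.3% and 11.9% of all genes), with a median log2 fold change of 0.52. Relative to the common median 10 were higher and 1 lower (58.8% and 5.88%, against 19.5% and 27.9%). Csf1r, the macrophage growth factor receptor, went from 27.9 and 30.1 to 56.7 and 51.8 FPKM, and the macrophage receptor Mrc1 went from 108 and 103 to 244 and 215 FPKM, whereas Cd14 was not called, at 7.78 and 9.47 against 8.94 and 9.23 FPKM. Of 10 osteoclast markers tested, 9 were higher under both scalings (90%, against 46.3% of all genes as deposited and 19.5% relative to the common median). Summed FPKM over the list was 323 and 308 against 963 and 902. Acp5, the tartrate-resistant acid phosphatase, went from 24.5 and 26.3 to 152 and 132 FPKM. Dcstamp, needed for osteoclast fusion, went from 0.501 and 0.410 to 4.96 and 4 FPKM. Nfatc1, the osteoclast master regulator, was not called as deposited, at 10.8 and 10.9 against 10.7 and 11.5 FPKM, and was lower relative to the common median (-0.21, adjusted p = 0.0340). The osteoclast list shares Ctsk and Atp6v0d2 with the genes above. In these bulk libraries, a change in the number of cells of a type and a change in RNA per cell cannot be told apart, and the part of these cells in the values of the members was not tested.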

How the data were processed

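The authors deposited FPKM values, 1 column per library, from RNA of mBMSCs sequenced in 2 libraries per group. Per the submitters' processing notes, TopHat2 2.0.12, Bowtie2 2.2.3, mm9 and HTSeq 0.6.1 were used, with no roles stated. Annotation release, gene lengths and strandedness: not given in the sources used here. A symbol was found for 46488 of 47069 identifiers. Sequencing depth was recovered from the step that 1 read makes (1279 to 1371 genes on the lowest step), and 23402 of 23404 genes above 0 then gave whole reads within 0.0001, summing to 98.4% to 98.5% of that depth. Replicate libraries differed by more than sampling noise in part of the genes (chi-square per gene, mean 11.1 and 6.5, median 0.940 and 1.10).

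The 12174 genes averaging 1 FPKM or more entered a moderated linear model of log2(FPKM + 1) (limma 3.58.1, R 4.3.3; trended eBayes, two-sided tests, Benjamini-Hochberg adjustment over them all). A pseudocount of 1 understates the change of low genes. The common median shift moved each library's log values by a constant. Alternatives were a minimum FPKM of 5 or none, pseudocounts of 0.1 and 5, the common median, quantile normalization, FPKM without the 10 most abundant genes, no trend, each library left out in turn, a replicate block and, chosen after seeing the data, voom on recovered reads. The fit was tested on simulated data. The members and lists were chosen with earlier results of these data known. Of the other lists, up to 3 genes per direction with the largest change and a mean FPKM of at least 5 and up to 2 abundant uncalled genes were eligible to be named, and not all are described; 1 eligible gene is not reported here. Figures were drawn with matplotlib 3.10.9.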

Additional observations from a re-analysis of the deposited data

How the results depend on the processing

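The counts of calls depended mainly on how the libraries were scaled. Under the common median, quantile normalization, FPKM without the 10 most abundant genes, and voom on recovered reads (the last chosen after seeing the data), the genes called higher numbered 2380, 2394, 3118 and 2931 against 5639 as deposited, and those called lower 3392, 3273, 2613 and 3056 against 1454. In the same order, V-ATPase genes called higher were 3, 4, 4 and 4 against 7 and lower 3, 3, 3 and 3 against 1. Membrane, hydrolase and regulator members called higher were 0, 1, 2 and 1 against 5, and other lysosome genes 27, 30, 36 and 36 higher against 74 and 39, 36, 29 and 37 lower against 12. Cathepsins called higher were 1 under the common median against 3, and those called lower were 5, 4 and 5 under the common median, quantile normalization and voom against 2. The difference between the V-ATPase and cathepsin medians was 0.0970 under quantile normalization. Leaving out single libraries gave 4475 to 5174 genes higher and 1136 to 1411 lower, 6 to 11 V-ATPase genes higher and 0 to 1 lower, 3 cathepsins higher and 2 to 3 lower, 4 to 5 of the other members higher, 59 to 75 other lysosome genes higher and 5 to 13 lower (6 and 5 lower without DMSO plus DEX replicates 1 and 2), and a difference of medians of 0.118 to 0.223.

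Some log2 fold changes turned in sign. Under the common median these were Ctsa -0.20, Ctsf -0.14, Ctsz -0.20, Atp6v1d -0.0941, Atp6v1e1 -0.0269, Atp6v1f -0.0832, Atp6v0a3 -0.12, Atp6v0c -0.0634, Atp6v0d1 -0.22, Atp6v0e -0.0282, Atp6ap1 -0.12, Lamp1 -0.12, Hexa -0.11 and Psap -0.0884. Under quantile normalization they were Ctsa -0.0390, Ctsf -0.11, Ctsz -0.17, Atp6v1d -0.0698, Atp6v1f -0.0199, Atp6v0a3 -0.0726, Atp6v0c -0.0734, Atp6v0d1 -0.15, Atp6ap1 -0.10, Hexa -0.0800 and Mitf -0.000200. Without the 10 most abundant genes they were Ctsa -0.14, Ctsf -0.0815, Ctsz -0.15, Atp6v1d -0.0380, Atp6v1f -0.0284, Atp6v0a3 -0.0667, Atp6v0d1 -0.16, Atp6ap1 -0.0685, Lamp1 -0.0631, Hexa -0.0597 and Psap -0.0352. With voom they were Ctsa -0.18, Ctsf -0.11, Ctsz -0.18, Atp6v1d -0.0701, Atp6v1e1 -0.00349, Atp6v1f -0.0613, Atp6v0a3 -0.0982, Atp6v0c -0.0279, Atp6v0d1 -0.20, Atp6v0e -0.00349, Atp6ap1 -0.10, Lamp1 -0.0938, Hexa -0.0903 and Psap -0.0660. Leaving out single libraries, Ctsz ranged from -0.0117 to 0.0703, Atp6v1g1 from -0.13 to 0.0541, Atp6v0d1 from -0.00584 to 0.0344 and Atp6v0c from -0.00341 to 0.34. The common median lowers every value by the constant 0.23. For the other settings the cause was not tested.

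Deviations from the group means were not shared by libraries of the same replicate number (correlation of deviations -0.0250). With 2 libraries per group this cannot exclude that such libraries came from the same mouse or culture. With the replicate number as a block, Atp6v0b was no longer called (limma adjusted p = 0.0539), so that 0 V-ATPase genes were lower, and it changed no other member's call. That count was also 0 with no minimum FPKM (adjusted p = 0.118) and without the trend (0.0603). Counting error is small for most members, and with 2 libraries per group the spread between libraries is what limits the smaller changes.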

Other observations

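Of 9 genes of mannose 6-phosphate and sortilin sorting, which deliver enzymes to the lysosome, 6 were higher with GA as deposited and 1 was lower (66.7% and 11.1%, against 46.3% and 11.9% of all genes). Relative to the common median, 3 were higher and 2 lower (33.3% and 22.2%, against 19.5% and 27.9%). Sort1, the sorting receptor sortilin, stood at 5.59 and 5.30 FPKM in DMSO plus DEX and at 57.4 and 57.6 in GA plus DEX, a 10.6-fold rise (limma adjusted p = 2.84e-08). Gnptab, of the enzyme that adds the mannose 6-phosphate tag, rose 1.78-fold, from 23.5 and 23.9 to 42.9 and 41.3 FPKM, and M6pr, a receptor for that tag, rose 1.67-fold, from 29.9 and 29.8 to 50.6 and 49.2 FPKM. Gga2, an adaptor of these receptors, fell from 41.1 and 41.6 to 33.2 and 35.1 FPKM. These 4 genes were called in the same direction relative to the common median.

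Of 18 genes tested on the list for the mTORC1 nutrient sensor at the lysosome, 11 were higher as deposited and none was lower (61.1% and 0%, against 46.3% and 11.9% of all genes). Relative to the common median, 3 were higher and 1 lower (16.7% and 5.56%, against 19.5% and 27.9%). These counts include the MiT/TFE gene Tfec, given above, which was called higher under both scalings. Lamtor4, a part of the Ragulator complex, went from 35.4 and 35.1 to 56.2 and 52.7 FPKM (1.55-fold, limma adjusted p = 9.57e-05), while Flcn, a regulator of the Rag GTPases, was listed at 40.1 and 40.2 against 42.8 and 43.9 FPKM and was not called (limma adjusted p = 0.109). Of 32 autophagy genes tested, 17 were higher and 3 lower as deposited (53.1% and 9.38%, against 46.3% and 11.9% of all genes). Relative to the common median, 6 were higher and 8 lower (18.8% and 25%, against 19.5% and 27.9%). Atg7, the enzyme that activates the ubiquitin-like autophagy proteins, went from 25.7 and 26.2 to 36.9 and 38.1 FPKM (limma adjusted p = 0.000190). Sqstm1, the cargo receptor p62, went the other way, from 387 and 383 to 342 and 336 FPKM (limma adjusted p = 0.0246), as did Gabarap, from 422 and 418 to 371 and 348 FPKM. All 3 were called in the same direction under both scalings. Over all 140 other lysosome and autophagy genes tested, 74 were higher and 12 lower as deposited, 52.9% and 8.57%, against 46.3% and 11.9% of all genes. Relative to the common median, 27 were higher and 39 lower, 19.3% and 27.9%, against 19.5% and 27.9%.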
